A study of Mus musculus with 33 samples.

Results

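Among 23762 EpCAM-sorted epithelial cells from the mouse large bowel, 219 cells (0.922%) carried genes of the absorptive cell of the ileum, the last stretch of the small intestine. They were selected by transcript counts. A cell was taken when Fabp6 made up at least 20 of every 10000 of its UMIs (unique molecular identifiers, each standing for 1 captured transcript), or when it held at least 1 UMI from at least 3 of the 7 genes Sis, Enpep, Apoa1, Rbp2, Mme, Apoa4 and Apoc3. The first criterion took 67 cells, called Fabp6-high below, and the second took 164. Only 12 cells met both, which is 17.9% of the Fabp6-high cells and 7.32% of the 164. The 152 cells that met the second criterion alone are called 3-of-7 cells. By genes outside the rule, most Fabp6-high cells of the cecum were high for small-intestinal genes. Few of them fell below the 5th percentile of colonocytes for colonocyte genes. The colonocytes used also included goblet-type cells, so that count does not settle the label of ileal-type enterocyte. The median for these genes lay below that of colonocytes in mice Young 5 and Old 6 and close to it in mouse Young 4. Most Fabp6-high cells of the proximal colon and most 3-of-7 cells were not high for small-intestinal genes. The cells are therefore called by their criterion.

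The libraries came from 11 female wild-type C57BL6/J mice. The 5 young mice were 8 to 20 weeks old and the 6 old mice 90 to 108 weeks old. Each mouse gave 1 library of isolated crypts from the cecum, 1 from the proximal colon and 1 from the distal colon. Cells were stained for EpCAM, a surface protein of epithelial cells, and with a hashtag antibody. Sorted cells were loaded on a droplet platform with either of a pair of 3' kit versions, and the labels do not tie the kit to the mouse. The 33 libraries ranged from 18 to 3403 cells and from 536778 to 21288806 UMIs. Young 1 to 3 and Old 1 to 3 gave 3627 cells with medians of 28055.5 to 36341 UMIs per cell in each mouse. Young 4, Young 5 and Old 4 to 6 gave 20135 cells with medians of 3982 to 10039. Across libraries, 226 cell barcodes recurred. Of the 219 selected cells, 9 had a barcode that recurred in another library, and libraries of the same mouse shared 0 barcodes.

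The ileal enterocyte recovers bile acids. Slc10a2 carries them in from the gut lumen with sodium, Fabp6 binds them inside the cell, and the Slc51a and Slc51b pair releases them to the portal blood. The nuclear receptor Nr1h4 senses them and induces Fgf15, a hormone that lowers bile acid synthesis in the liver. The same cells bear brush border enzymes such as the disaccharidase Sis, carriers for sugars and amino acids, and the machinery that packs dietary lipid into chylomicrons. The colonocyte, the absorptive cell of the large bowel, instead takes up salt and water and expresses Car1, Aqp8 and Slc26a3.

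The promoters of 4 genes are printed because these genes name the cells or lead the differences below: Fabp6 and Sis from the rule, Slc10a2 as the uptake carrier, and Reg3b as the first of the 10 highest genes below. Each is the 250 bases before the transcription start from RefSeq on GRCm38.p6, read 5′ to 3′ on the gene's own strand. Fabp6 lies at chr11:43601563-43601812 (minus strand), Sis at chr3:72967864-72968113 (minus), Slc10a2 at chr8:5105288-5105537 (minus) and Reg3b at chr6:78370635-78370884 (plus). Capitals mark TTTATG or its reverse complement, a sequence that caudal-type homeobox factors such as Cdx2 recognise.
Fabp6: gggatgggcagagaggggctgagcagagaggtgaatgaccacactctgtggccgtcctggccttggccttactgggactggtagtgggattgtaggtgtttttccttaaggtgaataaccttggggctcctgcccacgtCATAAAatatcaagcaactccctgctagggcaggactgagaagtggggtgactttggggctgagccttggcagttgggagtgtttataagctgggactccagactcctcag
Sis: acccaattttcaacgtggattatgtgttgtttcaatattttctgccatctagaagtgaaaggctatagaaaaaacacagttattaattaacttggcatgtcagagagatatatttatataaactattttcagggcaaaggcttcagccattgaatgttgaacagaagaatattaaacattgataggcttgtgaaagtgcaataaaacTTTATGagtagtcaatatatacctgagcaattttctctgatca
Slc10a2: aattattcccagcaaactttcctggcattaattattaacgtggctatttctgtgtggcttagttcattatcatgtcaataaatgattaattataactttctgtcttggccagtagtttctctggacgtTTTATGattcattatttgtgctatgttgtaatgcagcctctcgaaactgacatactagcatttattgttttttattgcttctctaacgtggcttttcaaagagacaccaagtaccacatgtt
Reg3b: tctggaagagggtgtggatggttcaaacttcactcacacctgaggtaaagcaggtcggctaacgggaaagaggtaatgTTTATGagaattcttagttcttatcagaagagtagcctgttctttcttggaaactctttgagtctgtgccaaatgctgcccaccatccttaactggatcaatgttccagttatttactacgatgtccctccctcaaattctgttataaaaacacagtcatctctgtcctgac
The caudal-type match lay 111 bases before the start of Fabp6, 43 before Sis, 122 before Slc10a2 and 172 before Reg3b. The search covered both strands, and the matches printed do not overlap one another. Of 18 genes looked up, 15 had a promoter entry, and 5 of these held TTTATG, the fifth being Fabp1. Over all 32851 promoters in the table, 10.8% held it. The inverted repeat that is the consensus for Nr1h4 matched 0 of the 15 genes and 0.00609% of all promoters. These matches describe letters in the window and were not tested as binding sites.

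The selected cells were concentrated in a few libraries. The cecum held 122 of 9971 cells, the proximal colon 67 of 7976 and the distal colon 30 of 5815. Of the 33 libraries, 22 held at least 1 selected cell, 11 held none, and 8 with at least 10 accounted for 194. Young 4, Young 5 and Old 6 gave 181. In the cecum, the share was 3.33% in Young 4 (52 of 1560 cells, exact Clopper-Pearson 95% interval 2.50 to 4.35), 0.852% in Young 5 (29 of 3403) and 2.11% in Old 6 (31 of 1466). Old 4, with 1843 cecal cells, held 2 selected cells, and Old 2, with 511, held 0. In the proximal colon the same mice led, with 1.98% in Young 4 (26 of 1316), 0.619% in Young 5 (14 of 2263) and 1.29% in Old 6 (17 of 1320). The distal colon was led by Old 1, with 2.38% (15 of 629), and by Young 4, with 0.756% (10 of 1323). These intervals cover counting error only. Median UMIs per cell in the cecum were 10367 in Young 4, 4401 in Young 5, 12785.5 in Old 6, 7172 in Old 4 and 32671 in Old 2. Whether a lower share came from fewer cells of the type or from less RNA per cell was not tested.

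**Figure D1:**
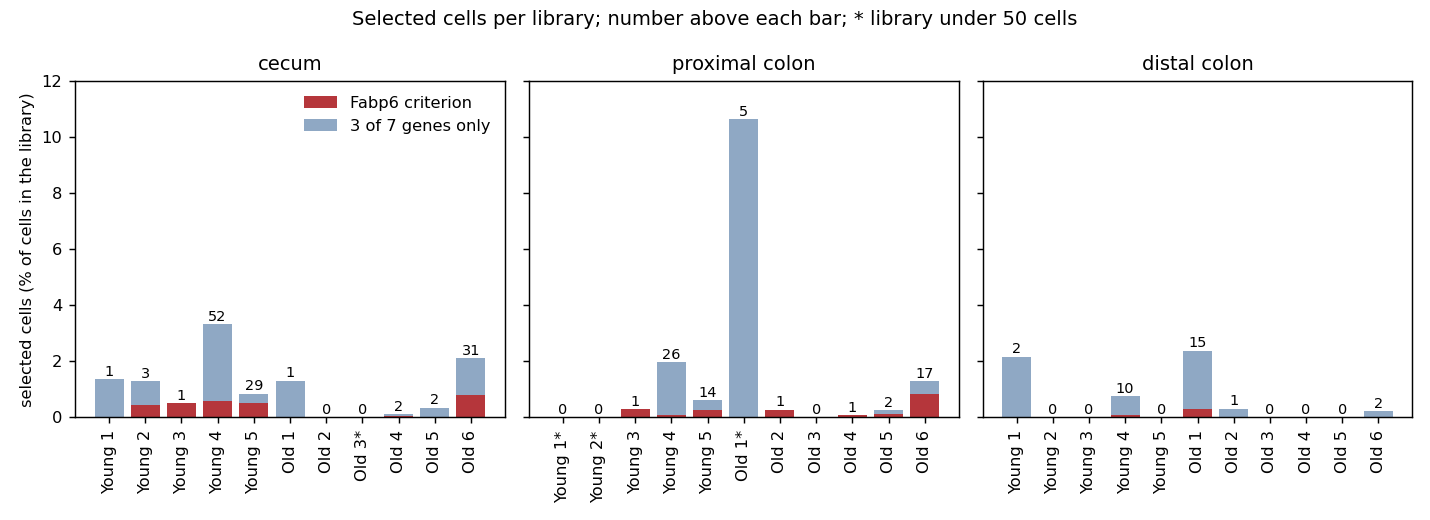
Percent of cells selected in each of the 33 libraries, with compartments as panels and mice along the horizontal axis. Red is the Fabp6 criterion, blue the cells with 3 of 7 genes alone, the number above a bar counts the selected cells, and an asterisk marks a library of fewer than 50 cells. Young 4, Young 5 and Old 6 hold 181 of the 219 cells, and the tallest bar, Old 1 proximal colon, stands for 5 of 47 cells.

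Neither compartment nor age separated the shares beyond the spread between mice. Libraries of at least 50 cells entered these tests. The cecal share exceeded the proximal share by 0.354 percentage points (SE 0.209, 7 mice, higher in 6; exact sign-flip permutation test, two-sided, p = 0.141, adjusted 0.410 over 7 share comparisons). It exceeded the distal share by 0.538 points (SE 0.365, 10 mice, higher in 7; exact p = 0.176, adjusted 0.410). The proximal share exceeded the distal share by 0.436 points (SE 0.171, 8 mice, higher in 6 and lower in 1; exact p = 0.0313, adjusted 0.219). Old mice averaged 0.588% (SD 0.761, n = 6) and young mice 1.04% (SD 0.800, n = 5), a difference of -0.450 points (SE 0.474; exact permutation test, two-sided, p = 0.357, adjusted 0.417). Within the cecum, proximal colon and distal colon the old minus young difference was -0.691, -0.578 and -0.0970 points, with exact permutation p = 0.317, 0.304 and 0.794. The 5 mice of lower depth held 188 selected cells of 20135 and the 6 of higher depth 31 of 3627.

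Thinning removed few Fabp6-high cells and most of the others. When every cell was thinned to 1500 UMIs, 63 of the 67 Fabp6-high cells still met their criterion, and 11 of the 164 cells still met the criterion of 3 of 7 genes. The median cell held 9338 UMIs among Fabp6-high cells, 13372.5 among 3-of-7 cells and 7612 among colonocytes. Of the 3-of-7 cells, 24 of 152 (15.8%) lay above the 95th percentile of UMIs in their library, against 7 of 67 Fabp6-high cells (10.4%) and 1172 of the 23543 cells not selected (4.98%). Doublets were not removed, and their part in the 3-of-7 cells was not tested. Just inside the thresholds, 3 cells had Fabp6 of 20.2 to 22.6 per 10000 and 132 cells held exactly 3 of the 7 genes. Just outside, 4 cells had Fabp6 of 15.2 to 19.3 and 996 cells held 2 of the 7 genes.

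The genes of the rule, given here as a description, set the 2 kinds of cell apart. In Fabp6-high cells Fabp6 ran from 20.2 to 969 per 10000 UMIs with a median of 112, and 37 cells exceeded 100. Sis was found in 46.3% of them at 2.03 per 10000 over all of them, Enpep, an aminopeptidase, in 32.8% at 0.850, and Apoa1, an apolipoprotein, in 22.4% at 4.10. In the 3-of-7 cells, where the rule keeps Fabp6 below 20, it stood at 0.895 per 10000, against 0.445 in the colonocytes of all libraries, and 62.5% of these cells held a UMI of it. Rbp2, which binds retinol in enterocytes, was found in 87.5% of the 3-of-7 cells, Apoa1 in 79.6% and Sis in 62.5%. A low count of Fabp6 was thus spread through the libraries, at 0.412 per 10000 in the cells not selected.

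The label was checked with 2 groups of genes outside the rule: 27 genes for small-intestinal digestive enzymes and nutrient carriers, and 26 genes of colonocytes. Colonocytes for comparison were the top 25% of each library by Slc26a3, Krt20, Guca2a and Car4, with selected cells left out, 5858 in all. In the cecum, 32 of 42 Fabp6-high cells (76.2%) exceeded the 95th percentile of the colonocytes of their library for the 27 intestinal genes. In the proximal colon 4 of 22 did (18.2%). For the 26 colonocyte genes, 4 of the 42 cecal cells (9.52%) lay below the 5th percentile of colonocytes, and 3 of the 42 met both conditions. The colonocyte group also held 1219 cells that ranked in the top 10% for goblet genes. In Young 4 cecum its cells ran from 4.14 to 1351 for the colonocyte genes. How far the goblet-type cells set the 5th percentile was not tested, so the count does not settle the label. By rank alone, 36 of the 67 Fabp6-high cells (53.7%) would have fallen in the top 25% that defined colonocytes. Guca2a was the most abundant of the 4 genes of that rank, at 47.5 per 10000 in Fabp6-high cells and 77.1 in colonocytes. Krt20 was higher in Fabp6-high cells (8.30 against 4.24), and Slc26a3 and Car4 were lower. Of 2379 goblet-type cells, 1219 also fell in the top 25%, so the rank alone does not label a cell as a colonocyte. The cecal Fabp6-high cells had a median of 45.9 per 10000 for the 26 colonocyte genes and the proximal ones 418. Colonocytes had medians of 299 in the cecum and 179 in the proximal colon. Within libraries, the cecal Fabp6-high median lay below that of the colonocytes in Young 5 (49.5 against 355) and Old 6 (169 against 658) and close to it in Young 4 (26.4 against 29.4). In the proximal colon it lay above in Old 6 (435 against 320), below in Young 5 (304 against 376), and the 1 cell of Young 4 stood at 578 against 158.

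A difference between the compartments in the same direction appeared in each of the 3 mice with Fabp6-high cells in both compartments. In Young 4 the intestinal genes were above the 95th percentile in 6 of 9 cecal and 0 of 1 proximal cells, in Young 5 in 15 of 18 and 1 of 6, and in Old 6 in 8 of 12 and 1 of 11. The mean share over these mice was 72.2% in the cecum and 8.59% in the proximal colon, a difference of 63.6 points (SD 5.25, n = 3, higher in 3; exact sign-flip permutation p = 0.25, the smallest that 3 mice allow). Colonocyte genes had mean medians of 81.7 and 439 per 10000, a difference of -357 (SD 168, n = 3, lower in 3, exact p = 0.25). This comparison was chosen after seeing the data, and Fabp6 itself had a median of 186 per 10000 in the cecal cells and 45.7 in the proximal ones.

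**Figure D2:**
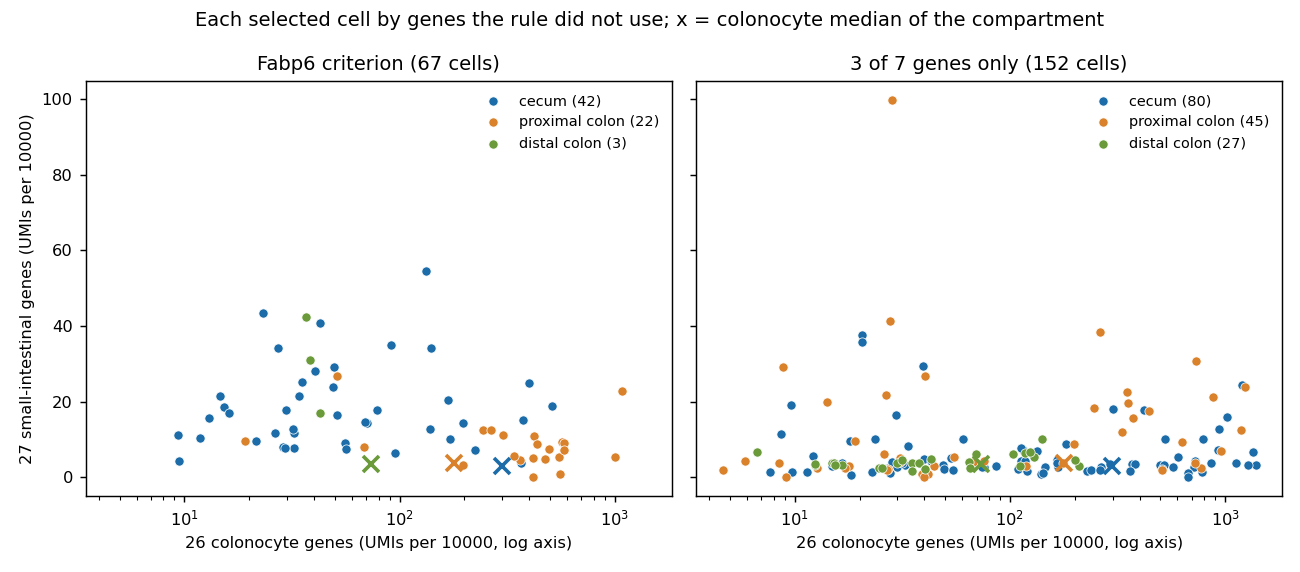
Each point is 1 selected cell, placed by its level of 26 colonocyte genes (horizontal, log axis) and 27 small-intestinal genes (vertical), both in UMIs per 10000, with colour for the compartment and a cross for the colonocyte median of each compartment. In the panel of 67 Fabp6-high cells the cecal points have medians of 45.9 for colonocyte and 15.3 for intestinal genes and the proximal points 418 and 7.63, with wide spread: cecal colonocyte levels run from 9.37 to 510. For colonocyte genes, the 152 cells of the other panel have medians of 118 in the cecum, 44.4 in the proximal and 37.7 in the distal colon. These lie below the crosses, at 299, 179 and 73.6. For intestinal genes their medians are 3.42, 5.39 and 3.75, against 2.99, 3.83 and 3.53 in colonocytes.

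The 3-of-7 cells were mixed. Only 29 of 152 (19.1%) exceeded the 95th percentile for the intestinal genes, 14 of 80 in the cecum, 15 of 45 in the proximal colon and 0 of 27 in the distal colon. Among those with at least 4 of the 7 genes the count was 14 of 27 (51.9%). Of colonocytes, 306 of 5858 (5.22%) exceeded it by construction. Single cells supplied some of the most abundant transcripts. In Young 5 proximal colon all 1678 UMIs of Gip, a hormone of enteroendocrine K cells, came from 1 of 8 cells. In Young 4 proximal colon 456 of 464 UMIs of Cck, another gut hormone, came from 1 cell. In Young 4 cecum 162 of 209 UMIs of Fabp1 came from 1 of 43 cells. Sums over the 3-of-7 cells rested on few cells for such genes.

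Gene groups were also summed within single libraries. The 14 digestive enzymes detected outside the rule summed to 11.8 UMIs per 10000 in the Fabp6-high cells of Young 4 cecum, 11.8 in Young 5 and 13.7 in Old 6. The colonocytes of these libraries had 2.75, 2.37 and 4.18. In the proximal colon the Fabp6-high cells had 3.57, 7.86 and 7.08 against 3.55, 4.35 and 5.28 in colonocytes. For 9 bile acid genes other than Fabp6, Fabp6-high cells had 9.89 to 18.0 in the cecum, where colonocytes had 2.14 to 4.62. In the proximal colon they had 14.3, 13.1 and 11.6 against 5.43, 6.94 and 8.85. Bile acid genes in Fabp6-high cells were thus above colonocytes in both compartments, and in all 6 libraries. The proximal values of Young 4, Young 5 and Old 6 rested on 1, 6 and 11 cells with 12, 35 and 136 UMIs. The 3-of-7 cells of these proximal libraries stood at 7.04, 3.53 and 15.8, in Old 6 above the Fabp6-high cells. The 26 colonocyte genes summed to 24.2, 76.1 and 209 in the cecal Fabp6-high cells, against 273, 347 and 646 in colonocytes, and to 578, 379 and 403 in the proximal ones, against 349, 422 and 426. In Young 4 cecum, where the medians per cell lay close, single colonocytes ran up to 1351.

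**Figure D3:**
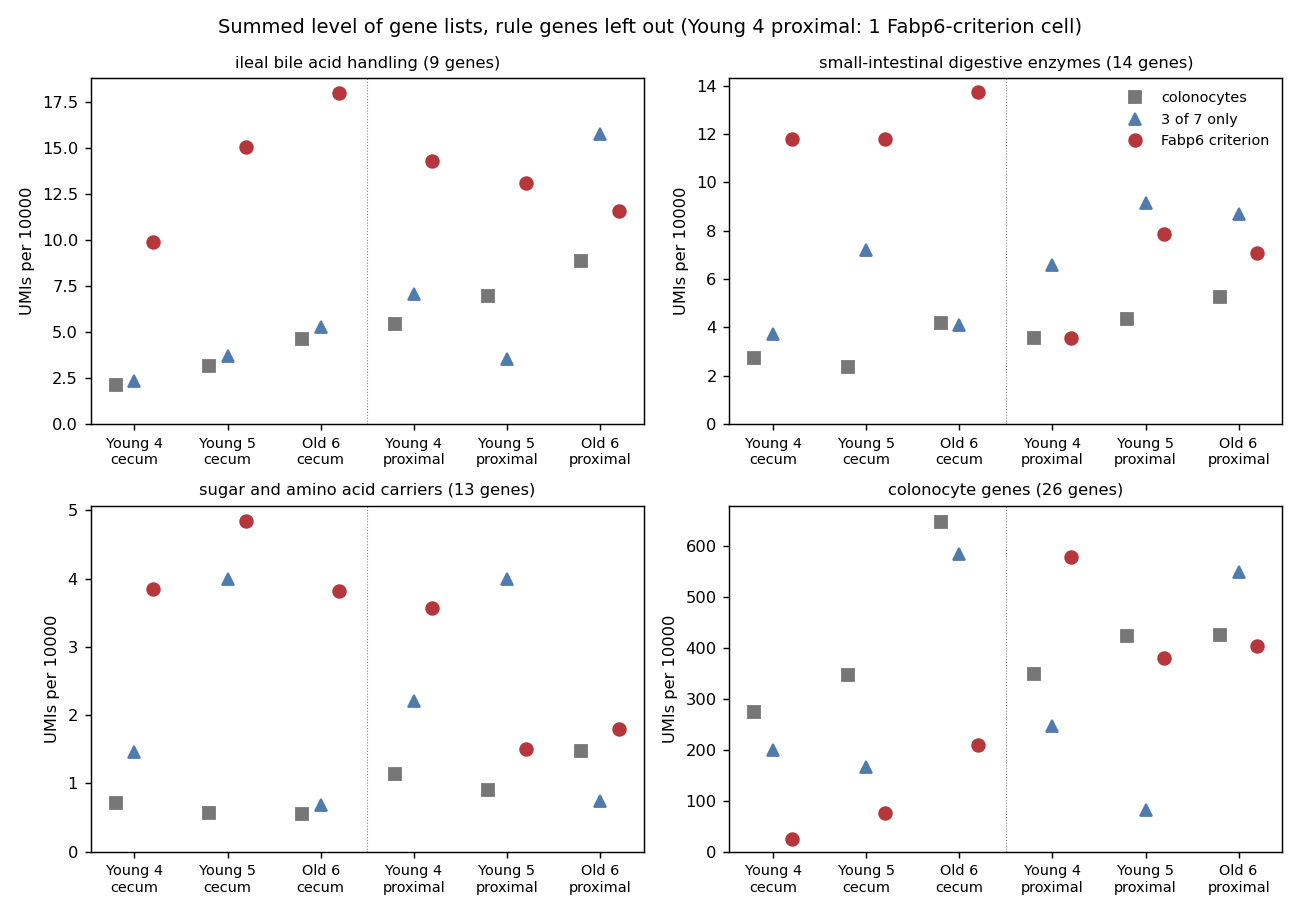
Summed level of 4 gene lists in UMIs per 10000 in 6 libraries, with circles for Fabp6-high cells, triangles for 3-of-7 cells and squares for colonocytes of the same library. Digestive enzymes are highest in the circles of the 3 cecal libraries, at 11.8 to 13.7, and for colonocyte genes the circle is the lowest of the 3 classes in each cecal library, at 24.2 to 209.

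Gene by gene, cecal cells were compared with colonocytes of the same library in Young 4, Young 5 and Old 6, the mice with at least 10 selected cells there. All selected cecal cells of these mice were first pooled per library (52, 29 and 31 cells). Of 8759 genes tested, 782 passed edgeR's quasi-likelihood test with Benjamini-Hochberg adjustment at 0.05 (8.93%), 338 higher in the selected cells (3.86%) and 444 lower (5.07%). The Fabp6-high cells alone (9, 18 and 12 cells) gave 568 of 8471 genes (6.71%), 184 higher (2.17%) and 384 lower (4.53%). The 3-of-7 criterion alone (46, 11 and 24 cells) gave 710 of 8653 (8.21%), 298 higher (3.44%) and 412 lower (4.76%). The cells that met both criteria, 3 in Young 4 and 5 in Old 6, entered both of these fits, so the fits are not independent. Without the library term 40 genes passed among all selected cells. Selected cells had more UMIs than colonocytes in all 3 mice (log2 difference of medians 0.42, SD 0.21; exact sign-flip permutation p = 0.25, the smallest possible). The fit of Fabp6-high cells alone was chosen after seeing the data. A gene entered a fit when at least 3 sums held enough counts, so it could enter through the selected cells alone. The counts of list genes below cover only genes that entered, and are to be read beside the shares over all genes given here.

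The basolateral exporter of bile acids, the Slc51a and Slc51b pair, was higher in Fabp6-high cells. Of 6 bile acid genes tested, 3 were higher and 1 lower in all selected cells, with a median log2 difference of 1.16 against -0.04 over all genes. In the Fabp6-high cells alone 4 were higher and 1 lower, with a median of 1.77 against -0.13, and under the 3-of-7 criterion 3 were higher and 0 lower. Slc51a, part of the basolateral exporter, stood at 437 CPM (UMIs per 1000000) in Fabp6-high cells of Young 4, 676 in Young 5 and 633 in Old 6. Colonocytes had 56.6, 79.4 and 127 (log2 difference 2.59 ± 0.20 SE, 3 mice, edgeR adjusted p = 3.4e-10). For all selected cells the difference was 1.52 ± 0.21 (edgeR adjusted p = 3.1e-05). Its partner Slc51b stood at 385, 596 and 705 against 38.5, 84.8 and 131 (2.64 ± 0.20, edgeR adjusted p = 3.2e-10).

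Slc10a2, the uptake carrier, rested on Old 6. It stood at 35.0, 30.3 and 245 CPM in the Fabp6-high cells of Young 4, Young 5 and Old 6, from 4, 3 and 41 UMIs, against 29.4, 10.1 and 25.2 in colonocytes. For all selected cells the log2 difference was 1.18 ± 0.34 (edgeR adjusted p = 0.030) and 0.04 without Old 6 (adjusted p = 0.99). Nr1h4, the bile acid receptor, passed in Fabp6-high cells (1.02 ± 0.29, edgeR adjusted p = 0.024) and not in all selected cells (0.14 ± 0.23, adjusted p = 0.81). Abcc3, a basolateral exporter of conjugates that colonocytes also express, was lower (-0.89 ± 0.23 in all selected cells, edgeR adjusted p = 0.015). Without Old 6 it no longer passed, at -0.92 with adjusted p = 0.18. Fgf15 was too rare to test, at 0.238 UMIs per 10000 in the Fabp6-high cells of all libraries and 0.00171 in colonocytes.

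Of 11 small-intestinal digestive enzymes outside the rule that were tested, 7 were higher and 0 lower in all selected cells (median log2 difference 1.06). In Fabp6-high cells it was again 7 and 0 (median 2.09). Of 10 tested under the 3-of-7 criterion, 6 were higher and 0 lower. The 3-of-7 cells that were not Fabp6-high had 3.72, 7.21 and 4.12 UMIs per 10000 of the 14 enzymes in Young 4, Young 5 and Old 6, so that those of Old 6 were not above their colonocytes, at 4.18. Naaladl1, a peptidase of the ileal brush border, stood at 184, 474 and 245 CPM in Fabp6-high cells of Young 4, Young 5 and Old 6 against 2.83, 8.02 and 8.61 in colonocytes (log2 difference 5.32 ± 0.31, edgeR adjusted p = 1.6e-12). Cndp2, a cytosolic dipeptidase, differed by 1.37 ± 0.22 in all selected cells. Ggt1, which breaks down glutathione, differed by 1.52 ± 0.46 (edgeR adjusted p = 0.042) and by 0.35 without Old 6 (adjusted p = 0.89).

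Of 13 amino acid and sugar carriers listed, 6 had enough counts to test. Since enough counts in 1 class sufficed, a carrier could enter through the selected cells alone, and the counts are a description. Over all genes tested, 3.86% were higher in all selected cells, 2.17% in Fabp6-high cells and 3.44% under the 3-of-7 criterion. Of the 6 carriers, 5 were higher and 0 lower in all selected cells (median 1.88) and all 6 were higher in Fabp6-high cells (median 2.84). Under the 3-of-7 criterion 2 of 5 tested were higher and 0 lower. Summed, the 13 stood at 1.46, 3.99 and 0.682 UMIs per 10000 in the 3-of-7 cells of Young 4, Young 5 and Old 6, against 0.718, 0.572 and 0.549 in colonocytes. Slc7a9, the light chain of the cystine carrier, stood at 114, 111 and 77.6 CPM in Fabp6-high cells against 4.81, 4.14 and 1.13 in colonocytes (4.81 ± 0.51, edgeR adjusted p = 1.1e-07). Slc1a1, a glutamate carrier, differed by 4.14 ± 0.56 in Fabp6-high cells. Slc5a1, the sodium-glucose carrier, differed by 1.46 ± 0.26 in all selected cells and 1.95 ± 0.37 in Fabp6-high ones. Slc6a20a, a carrier of proline-like substrates, differed by 2.31 ± 0.66 (edgeR adjusted p = 0.029) on 6, 4 and 3 UMIs, and no longer passed without Old 6 (2.23, adjusted p = 0.14) or without Young 5 (1.71, adjusted p = 0.13).

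Lipid genes were higher for a part of their list. Of 17 tested, 8 were higher and 0 lower in all selected cells (median 0.72), 5 of 15 in Fabp6-high cells (median 1.04) and 7 of 17 under the 3-of-7 criterion (median 0.73). Fabp1, the liver-type fatty acid binding protein of the upper small intestine, stood at 339, 3712 and 44.4 CPM in the cells meeting the 3-of-7 criterion in Young 4, Young 5 and Old 6, against 33.9, 82.8 and 36.5 in colonocytes (3.16 ± 0.30, edgeR adjusted p = 1.8e-15). In Fabp6-high cells it stood at 105, 121 and 29.9 (0.52 ± 0.35, adjusted p = 0.53). Old 6 was near its colonocytes in both, so the SE under the 3-of-7 criterion does not show how far apart the mice lay. DESeq2 did not call Fabp1 in all selected cells. Mttp, which loads lipid onto apolipoprotein B, was higher under both criteria (3.03 ± 0.60 in Fabp6-high cells, edgeR adjusted p = 0.0010, and 2.93 ± 0.49 under the 3-of-7 criterion, adjusted p = 2.7e-06). In Old 6 the 19 3-of-7 cells that were not Fabp6-high had 0 UMIs of Mttp. Npc1l1, the cholesterol importer, differed by 3.37 ± 0.57 and Abcg5, a sterol exporter, by 2.83 ± 0.61 in all selected cells. Fabp2, the intestinal-type binding protein shared by both segments, did not pass (-0.36 ± 0.13, edgeR adjusted p = 0.11). For the uptake of vitamin B12, an ileal task, 1 of 3 genes passed: Amn, at 1.07 ± 0.30 (edgeR adjusted p = 0.027), which did not pass without Young 4 (0.80, adjusted p = 0.36) or without Young 5 (0.88, adjusted p = 0.067).

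Transcription factors of the small intestine were higher for 4 of the 6 tested in all selected cells (median 1.58) and for 4 of 7 in Fabp6-high cells (median 2.13), with 0 lower, and for 1 of 5 under the 3-of-7 criterion. Osr2 stood at 140, 202 and 137 CPM in Fabp6-high cells of Young 4, Young 5 and Old 6 against 19.5, 14.7 and 12.2 (3.19 ± 0.33, edgeR adjusted p = 7.5e-08), while the 3-of-7 criterion gave 0.89 ± 0.36 (adjusted p = 0.13). Maf, a leucine zipper factor of villus enterocytes, differed by 4.89 ± 0.62 in Fabp6-high cells (edgeR adjusted p = 1.9e-06) on 3, 6 and 8 UMIs. Hnf4g passed at 1.28 ± 0.36 in all selected cells (edgeR adjusted p = 0.029) and not without Old 6 (0.98, adjusted p = 0.31). Creb3l3 passed at 1.89 ± 0.46 (edgeR adjusted p = 0.0099) and not without Old 6 (2.35, adjusted p = 0.058). Gata4, a factor of the upper small intestine, was too rare to test. None of the 8 factors shared by both segments, among them Cdx2 and Hnf4a, passed in all selected cells.

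Among passing genes with at least 50 CPM and 1 sign in every mouse, the highest log2 difference in all selected cells was that of Reg3b, a secreted lectin of the antimicrobial Reg3 family (5.20 ± 0.43). It stood at 23115, 17128 and 21294 CPM in Fabp6-high cells of Young 4, Young 5 and Old 6, and at 491, 255 and 47.6 in colonocytes (6.53 ± 0.42, edgeR adjusted p = 1.2e-11). Cells meeting the 3-of-7 criterion stood between, at 2126, 2991 and 3048 (3.57 ± 0.25, edgeR adjusted p = 3.5e-23), with the cells that met both criteria included. In Old 6 the 19 3-of-7 cells that were not Fabp6-high had 159 UMIs of Reg3b, 149 of them from 1 cell. Per cell, Reg3b exceeded the 95th percentile of colonocytes in 38 of 42 Fabp6-high cells of the cecum (90.5%), in 10 of 22 of the proximal colon (45.5%), and in 13 of 80 cecal 3-of-7 cells. Its relatives Reg3g (4.99 ± 0.37) and Reg3a (5.07 ± 0.43) differed similarly in Fabp6-high cells. The 3 are neighbours of related sequence, and reads of Reg3a, Reg3b and Reg3g may be shared between them. Ccl25, the chemokine that draws lymphocytes to the small intestine, stood at 630, 646 and 555 against 35.1, 34.9 and 33.3 (3.96 ± 0.20, edgeR adjusted p = 8.9e-14). St3gal4, a sialyltransferase, Gsta1, a glutathione transferase, and Rbp7, a retinol binding protein, were also among the 10 highest of all selected cells, and stood at 4.32 ± 0.26, 4.15 ± 0.28 and 3.81 ± 0.46 in the Fabp6-high ones. Adh6a, an alcohol dehydrogenase, completed them at 2.99 ± 0.44, with 74.5, 103 and 5.94 CPM in Young 4, Young 5 and Old 6. Other members of the antimicrobial list went the other way, so that 3 of 12 were higher and 4 lower.

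**Figure D4:**
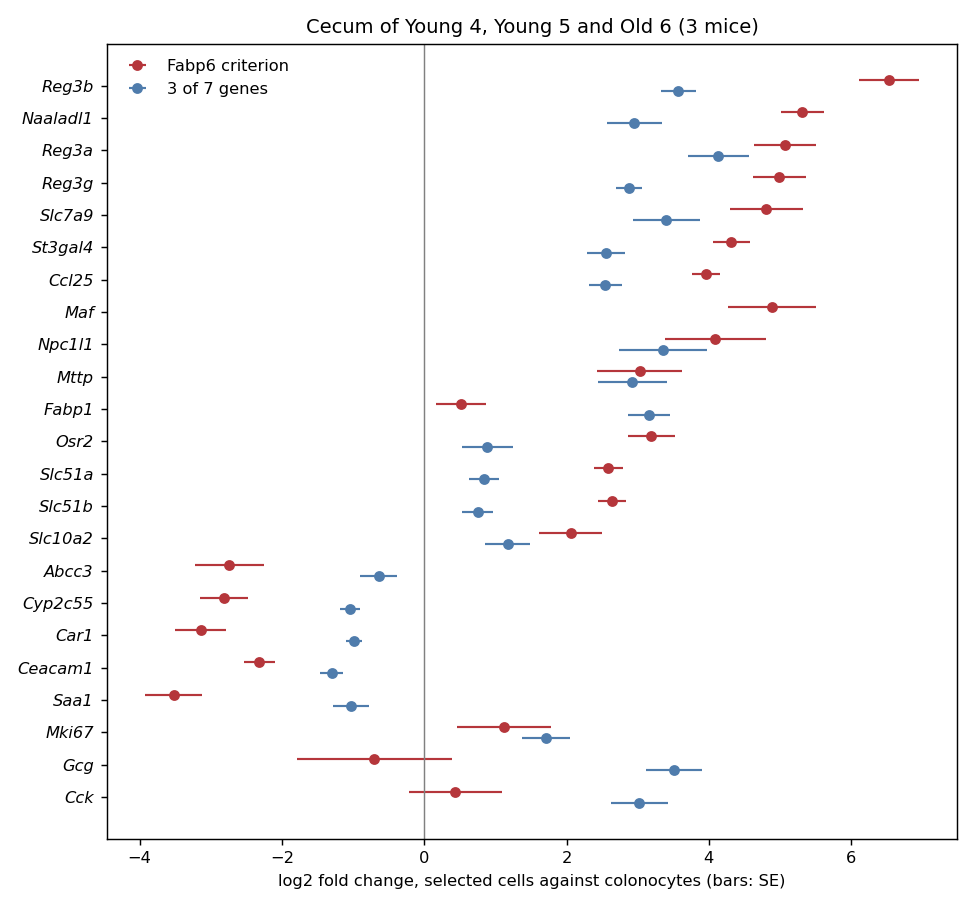
Log2 difference from colonocytes of the same cecal library (horizontal, ± SE over the fit of Young 4, Young 5 and Old 6) for 23 genes, in the fit of Fabp6-high cells and in the fit of cells meeting the 3-of-7 criterion. Reg3b, Naaladl1 and Slc51a lie farther right for Fabp6-high cells, Fabp1 for the 3-of-7 criterion, and Car1 lies farther left for Fabp6-high cells. Maf was not tested under the 3-of-7 criterion and has 1 point.

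Of 23 colonocyte genes tested, 10 were lower and 0 higher in all selected cells (median -0.74), and 11 of 21 lower and 1 higher in Fabp6-high cells (median -1.37), with 8 of 22 lower and 0 higher under the 3-of-7 criterion. Car1, a carbonic anhydrase of the cecum and proximal colon, stood at 595, 4310 and 14652 CPM in Fabp6-high cells of Young 4, Young 5 and Old 6, against 18715, 25524 and 48956 in colonocytes (-3.15 ± 0.36, edgeR adjusted p = 3.6e-07). In the cells meeting the 3-of-7 criterion it stood at 11990, 11290 and 35695 (-0.99 ± 0.11, adjusted p = 1.8e-12). Aqp8, a water channel of surface colonocytes, had 1, 0 and 2 UMIs in Fabp6-high cells, while colonocytes stood at 1108, 259 and 1234 CPM. For all selected cells Aqp8 differed by -1.18 ± 0.22 (edgeR adjusted p = 0.0011). Ceacam1, an adhesion molecule, differed by -2.32 ± 0.22 in Fabp6-high cells. Saa1, an acute-phase protein of the large bowel epithelium, differed by -1.38 ± 0.28 in all selected cells (edgeR adjusted p = 0.0025) and by -0.70 without Young 4 (adjusted p = 0.054). Against all other cecal cells in place of colonocytes, 535 of 11298 genes passed (4.74%), 351 higher (3.11%) and 184 lower (1.63%), and 8 colonocyte genes were higher and 3 lower. Aqp8 and Saa1 then turned, to 1.11 and 0.51.

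The colonocytes used for comparison included goblet-type cells. The gate held 1219 of 5858 cells that also ranked in the top 10% of their library for goblet genes, the mucus cells. Goblet markers summed to 136 UMIs per 10000 in Fabp6-high cells, 207 in 3-of-7 cells and 396 in colonocytes of the libraries concerned. All 11 goblet markers were lower in all selected cells and 8 in Fabp6-high cells, Muc2 by -2.18 ± 0.13 (edgeR adjusted p = 6.2e-10). Reg4 (-3.80 ± 0.46), Retnlb (-3.59) and Spink4 (-2.75), genes of goblet and deep crypt secretory cells, were among the 10 lowest. The others were C1qa (-3.90), Rap1gap, Rep15, Ccl20, Atp2c2, Nupr1 and Ramp1 (-2.87). Of 10 Paneth genes tested 4 were lower and 0 higher. With goblet-type cells taken out of the colonocytes, 15 of the 76 named genes lost their call, among them Slc10a2, Ggt1, Hnf4g and Creb3l3, which were higher, and Ang4, Itln1, Sytl2 and Jun, which were lower, and 0 turned their sign.

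Markers of other cell types were read in both kinds of cell. Cycling markers were higher for 8 of 10 in all selected cells, led by Mki67 (1.75), for 9 of 10 under the 3-of-7 criterion and for 0 of 10 in Fabp6-high cells. Summed, they stood at 8.44 UMIs per 10000 in 3-of-7 cells, 2.49 in Fabp6-high cells, 2.03 in colonocytes and 7.32 in the other cells. Against all other cecal cells Mki67 turned, to -0.17. Enteroendocrine markers were higher for 4 of 6 and lower for 1, with 5 of 7 higher under the 3-of-7 criterion and 1 of 6 in Fabp6-high cells. In all selected cells Gcg was higher by 3.18, Cck by 2.74, Chgb by 1.99 and Chga by 1.88, all of them from Young 4: without it they stood at -0.23, -0.25, -0.62 and -1.91. In that library 206 of 214 UMIs of Gcg in 3-of-7 cells came from 1 cell. Tuft markers were higher for 3 of 7, led by Dclk1 (2.08 ± 0.43), with 12 of the Fabp6-high cells' UMIs in Young 4 from 1 cell. Another that passed, Sh2d6, stood at 0.37 without Young 4. T cell and B cell markers had 0 UMIs in Fabp6-high cells, and 2 of 10 and 1 of 8 had any in the selected cells. Genes of the dissociation response were lower for 5 of 16 and higher for 1 in all selected cells (median -0.42) and lower for 7 and higher for 0 in Fabp6-high cells (median -1.03 against -0.13 over all genes). The part of these markers in the other results was not tested.

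Between compartments, the selected cells of the cecum and the proximal colon differed in 55 of 3227 genes (1.70%), 22 higher in the cecum (0.682%) and 33 lower (1.02%), in the same 3 mice with the mouse as a block. The proportions of the 2 kinds of cell differed between the compartments: Fabp6-high cells were 9 of 52 in the cecum and 1 of 26 in the proximal colon of Young 4, 18 of 29 and 6 of 14 in Young 5, and 12 of 31 and 11 of 17 in Old 6. With the 3-of-7 criterion alone, at least 5 cells per sum, 1 gene, 9130204K15Rik, passed edgeR's test. The means of colonocytes over the 3 mice differed in the same direction for the 10 leading genes, but not in every mouse: Ifrd1 stood at 32.1 CPM in the cecum and 33.6 in the proximal colon of Young 5 colonocytes, and S100g at 956 and 793 in Young 4. Zg16, a mucus lectin, stood at 4875 CPM in the cecal and 979 in the proximal selected cells (mean of 3 mice; log2 difference 2.50 ± 0.19, edgeR adjusted p = 7.5e-06), and at 9325 and 3282 in colonocytes. Slc37a2, a sugar phosphate exchanger, stood at 169 and 11.9 (3.60 ± 0.48), and at 357 and 56.4 in colonocytes. Ifrd1 stood at 221 and 21.3 (3.34 ± 0.38), and at 78.5 and 32.0 in colonocytes. On the proximal side Nupr1, a stress-induced nuclear protein, stood at 62.7 and 403 (-2.61 ± 0.26), and at 395 and 1283 in colonocytes. The other 6 leading genes lost their call without Old 6: 9130204K15Rik (5.67 ± 0.65), the chloride channel regulator Clca1 (2.35), the amino acid carrier Slc6a14 (-2.88), the defensin Defb37 (-2.83), the iron exporter Slc40a1 (-2.50) and the calcium binding protein S100g (-2.25). Their adjusted p without it was 0.098 to 0.13. Of the bile acid, digestive, carrier and lipid genes, 0 of 5, 0 of 6, 0 of 2 and 0 of 8 tested passed edgeR's test. Without the mouse block 0 genes passed edgeR's test, and 110 had an unadjusted p below 0.05.

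Age could not be tested for genes within the selected cells, since only 2 young mice and 1 old mouse had at least 10 of them in the cecum. The values for Young 4, Young 5 and Old 6 are given side by side above. Reg3b, Slc51a, Naaladl1 and Ccl25 were above colonocytes in both young mice and in the old one. Among the cecal cells of these mice Slc10a2 was highest in Old 6, and Fabp1 and Adh6a were higher in the young mice. The selected cells of another old mouse, Old 1, held Fabp1 at 23.9 and Adh6a at 6.82 per 10000 in the proximal colon. All selected cecal cells of Young 5 held 15.5 and 1.03, so no age pattern is read from these values.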

How the data were processed

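Single-cell RNA was counted in 33 libraries. For each library the authors deposited a matrix of raw UMI counts, made with Cell Ranger on mm10 per the submitters' processing notes, in which its version is not given. The deposited cells had at least 1559 UMIs and 1001 genes, so no further filter was applied. Whether counting used strand is not given in the sources used here, so overlapping genes are uncertain. Doublets were not removed and no caller was run. Cells were selected as the report states, and the selected cells, comparisons and gene lists were chosen with earlier results of these data known.

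UMIs were summed per library and class where a class had at least 10 cells (at least 5 for the Fabp6 criterion alone), since cells are not replicates. Sums were compared with edgeR 4.0.16 (R 4.3.3, limma 3.58.1; filterByExpr, TMM scaling, quasi-likelihood F test) with the library or mouse as a block. Both classes come from the same library, and libraries of a mouse carry its name in the labels, which is where the pairing comes from. A gene passed when its p, adjusted by Benjamini-Hochberg over all genes tested, was below 0.05. For the 12 genes of the 2 gates no test is given, and values are described for part of them. The SE is the log2 difference divided by the root of F. Shares were compared over mice with exact permutation tests (Python 3.11.15, numpy 2.4.6, scipy 1.17.1, pandas 2.3.3; plots with matplotlib 3.10.9), and p-values were adjusted over 7 comparisons. The labels give mice as separate animals, and the permutation p-values rest on the spread between them. edgeR shares its estimate of spread across genes. For a single gene its SE and p can therefore be smaller than the values of the mice imply, as for Fabp1 under the 3-of-7 criterion.

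Named genes were the 4 largest passing differences of each list, 8 genes that define the cell type, the 10 highest and 10 lowest passing genes with a mean of at least 50 CPM in the higher class and 1 sign in every mouse, and, between compartments, the 5 highest and 5 lowest. Values of some genes that the rule names are not reported here. Counts were simulated with these library sizes and an assumed coefficient of variation (SD over mean) of 0.25 between sums. The comparison with colonocytes (8429 genes) called 20% of genes changed by 1 on the log2 scale and 76.0% of those changed by 2. Of its calls, 1.08% were false. The compartment comparison (2957 genes) called 33.0% and 93.0%, with 1.80% of calls false. These rates hold for the assumed spread only. Sums in which single cells supply most UMIs were not simulated, so the rates may not apply to them. Alternatives were DESeq2 1.42.0, other scalings, filters, gates and thresholds, thinning to 1500 UMIs, and leaving out each mouse.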

Additional observations from a re-analysis of the deposited data

Results flagged for a closer look

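The share of selected cells in the proximal colon of old mice was flagged because Old 6 stood apart from the 4 others: it held 1.29%, and the next highest mouse 0.279%. In the distal colon of old mice Old 1 stood apart in the same way, with 2.38% against 0.321% in the next of the 6 mice. Of 5 groups large enough to examine, these 2 stood apart. Chance alone would flag about 1 group in 20 if shares were normally distributed. The lowest share was 0 in both flagged groups, so that rate may not apply. Old 1 proximal colon, a library of 47 cells left out of the share tests, held 5 selected cells, or 10.6% (exact Clopper-Pearson 95% interval 3.55 to 23.1). It was flagged because these cells lay in a library that the tests did not use. All 5 were 3-of-7 cells with Fabp6 at 0.361 UMIs per 10000, against 0.318 in the 10 colonocytes of the library. They held Sis at 11.9, Rbp2 at 18.3 and Apoa1 at 16.2 per 10000, genes of the rule, and for each gene 2 cells supplied nearly all of it: 136 and 121 of 264 UMIs of Sis, 259 and 144 of 405 of Rbp2, and 329 and 29 of 359 of Apoa1. For the 27 intestinal genes 2 of the cells stood at 29.3 and 99.9 per 10000 and the other 3 at 2.92 to 4.41, near the colonocyte median of 3.53. Outside the rule, Fabp1 stood at 23.9 against 0.371, Ccl25 at 8.67 against 0.530, and the alcohol dehydrogenase Adh6a at 6.82. Of 529 Fabp1 UMIs, 445 came from 1 cell and 82 from a further cell, and all 554 UMIs of Reg1 came from 1 cell.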

How the results depend on the processing

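The number of selected cells was 67 with the Fabp6 criterion alone, 12 with both criteria required and 83 after thinning to 1500 UMIs. Against colonocytes, 782 genes passed. The count was 334 with DESeq2, 1178 with colonocytes as the top 10%, 150 after thinning, 437 with selected cells up to the 95th percentile of UMIs, and 40 with no replicate block. Leaving out 1 mouse gave 396 (without Old 6) to 912 (without Young 5), and 430 without Young 4. Of the passing genes 43.2% were higher, against 65.6% with all other cells as the comparison, 33.3% after thinning, 32.3% with no filter and 67.5% with no replicate block. Between compartments the count of 55 became 30 with DESeq2, 1 with the 3-of-7 criterion alone, 0 with no replicate block, and 15 (without Old 6) to 110 (without Young 5) when 1 mouse was left out. The cause of these shifts was not tested. Share differences kept their direction when 1 mouse was left out: 0.187 to 0.460 points for cecum minus proximal, 0.311 to 0.716 for cecum minus distal, 0.324 to 0.504 for proximal minus distal and -0.702 to -0.204 for old minus young. Directions reversed for old minus young with both criteria (0.0318) and with libraries of at least 10 cells (0.199), for cecum minus proximal with libraries of at least 10 cells (-0.381) and in the higher-depth mice alone (-0.0296), and for cecum minus distal in those mice (-0.0802). Pairing young and old mice of the same number, which the labels do not tie together, gave a replicate block value of -0.574 (exact permutation p = 0.125).

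Of 76 named genes, 14 kept direction and call in every setting run. Over 1340 values, 1103 kept both, 215 lost the call (59 of them with no replicate block), 3 gained it and 19 reversed. With all other cells as the comparison the reversed log2 values were -0.18 (Chga), 0.16 (Abcc3), 0.20 (Klf4), 0.51 (Saa1), 1.11 (Aqp8), 0.39 (Cyp2c55), 0.83 (Fabp2), -0.17 (Mki67), -0.64 (Cenpf), -0.34 (Ccnb1) and -0.32 (Top2a). Leaving out 1 mouse gave -1.91 to 2.54 for Chga, -0.23 to 4.04 for Gcg, -0.25 to 3.68 for Cck and -0.62 to 2.71 for Chgb, the lowest each time without Young 4. Chga was -0.70 with DESeq2, Gcg -0.70 with the Fabp6 criterion alone, and sums per mouse gave 0.13 for Ang4 and 0.036 for Fabp2. Not run, for too few mice, were the Fabp6 criterion alone with at least 10 cells and the higher-depth mice alone for genes.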

Other observations

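The distal colon held 3 Fabp6-high cells, and 2 of them, both from Old 1, carried ileal genes together with a homeobox gene of the hindgut. These genes were chosen after their values were seen. The cells had 41130 and 50724 UMIs. Fabp6 stood at 219 and 261 UMIs per 10000, and Slc51a at 5.59 and 7.69. Fgf15, the bile acid-induced hormone, had 3 and 5 UMIs, and 0 in the 153 colonocytes of the library. Slc10a2 had 2 and 4 UMIs, and again 0 of 153 colonocytes held any. Car1 had 2 and 0 UMIs, and Gata4 1 UMI in each. Hoxb13, a homeobox gene of the distal colon, had 15 and 16 UMIs, or 3.65 and 3.15 per 10000, and was found in 149 of the 153 colonocytes, which stood at 3.86. Hoxa13 had 1 and 0 UMIs and was found in 74 of 153 colonocytes. The Fabp6-high cell of Young 4 distal colon, with 17146 UMIs, had 2 UMIs of Hoxb13, 12 of Slc51a and 196 of Reg3b. Doublets and free RNA were not tested as sources.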
